A study of Mus musculus with 12 samples.

Results

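The 9 genes described here are Nr3c1, which encodes the glucocorticoid receptor, and 8 genes grouped with it as glucocorticoid-responsive: Zbtb16, Tsc22d3, Fkbp5, Errfi1, Sgk1, Pim3, Cdkn1a and Mfsd2a. They were found by symbol among the 54532 gene rows of a table of liver expression, each matched 1 row, and all 9 were among the 10806 genes that passed the filter on low values. The set was chosen by its levels with and without dextran sulfate sodium (DSS) in these same libraries, where Zbtb16 and Fkbp5 were higher and Tsc22d3 lower with DSS. Their DSS differences are therefore given as a description with no test, and tests are kept for the diet, for the difference between both DSS effects and for other genes of the pathway. Whether the receptor acted on any of these genes in these livers was not measured.

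The glucocorticoid receptor is a nuclear receptor that waits in the cytoplasm in a complex with Hsp90 and its co-chaperones. Once corticosterone, the main glucocorticoid of mice, is bound, it enters the nucleus, binds response elements in DNA and raises or lowers transcription. In liver it is known for inducing enzymes of gluconeogenesis and amino acid breakdown and for its interplay with inflammatory signals. Fkbp5, a receptor target that lowers the hormone affinity of the complex, forms a negative feedback loop with it.

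Liver RNA came from mice of the inbred strain C57BL/6J, all wild-type, in 12 libraries of 4 groups of 3: high-fat diet with 2% DSS (HFD_DSS), the diet named CD with 2% DSS (CD_DSS), high-fat diet alone (HFD) and CD alone (CD). DSS is a sulfated polysaccharide that injures the colon lining and is used as a model of colitis. What CD stands for, the sex and age of the mice, the route and length of DSS exposure and any pooling of animals are not stated in the sources used here. No label says that the libraries of a group are from separate animals, so p-values measure only how far these samples vary, part of which may be technical.

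Expression is given as FPKM, fragments scaled to exon length and library depth, so that levels can be compared between genes. Depth was 23.4 to 29.4 M fragments per library, and each library's log2 values correlated with those of the others at r = 0.949 to 0.989. The 8 hepatocyte markers checked, Alb and Ttr among them, summed to 27901 to 51999 FPKM per library, with none at 0. Saa1, an acute phase gene, set 3 libraries apart from their groups. HFD_DSS 2, at 191 FPKM, was below HFD_DSS 1 and 3, at 1104 and 2670. CD_DSS 1, at 9.14 FPKM, was below CD_DSS 2 and 3, at 595 and 483, and HFD 1, at 579 FPKM, was above HFD 2 and 3, at 19.9 and 22.4. Results that rest on these libraries are given with and without them where both were computed.

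All 9 genes are annotated as protein-coding, and coordinates are those of mm10 in the GENCODE M21 annotation. Nr3c1 has the ID ENSMUSG00000024431. Zbtb16 (ENSMUSG00000066687) is on chromosome 9 at 48654297 to 48836222 and Tsc22d3 (ENSMUSG00000031431) on chromosome X at 140539528 to 140600659. Fkbp5 (ENSMUSG00000024222) is on chromosome 17 at 28399094 to 28517527, with Cdkn1a (ENSMUSG00000023067) on the same chromosome at 29090976 to 29100727. Errfi1 (ENSMUSG00000028967) and Mfsd2a (ENSMUSG00000028655) are on chromosome 4 at 150853919 to 150868892 and 122946850 to 122961188. Sgk1 (ENSMUSG00000019970) is on chromosome 10 at 21882184 to 21999903 and Pim3 (ENSMUSG00000035828) on chromosome 15 at 88862186 to 88865726. Values refer to the summed exons. Cdkn1a shares 7.68% of its exon bases with the antisense gene AC167363.2, and the other 8 genes share none.

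The response element of the receptor is an inverted repeat of AGAACA, written in full as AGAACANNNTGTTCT. Promoter windows of 300 bases, 250 before and 50 after a start site, were taken from RefSeq (GRCm38.p6) for 7 of the 9 genes, 16 windows in all. Nr3c1 and Zbtb16 were not among these genes, so their promoters were not read. Both strands were searched, and the shorter motifs lie within the full element. The full element was in 3 of 32851 windows of the genome (0.00913%), 1 of them a window of Sgk1. The looser core GNACANNNTGTNC was in 0.475% of windows and, among the 16, in that same Sgk1 window. A single arm (AGAACA, or TGTTCT on the other strand) was in 19% of windows and in 4 of the 16, namely 3 of the 6 windows of Sgk1 and 1 of the 3 of Tsc22d3. Upstream stretches of 250 bases that end at the base before the start site are shown for the Sgk1 window with the full element, the Tsc22d3 window with an arm and the only Fkbp5 window, the last 2 genes being a pair whose levels differed in opposite directions with DSS. The stretches are chr10:21993640-21993889 (plus strand), chrX:140600523-140600772 (minus strand) and chr17:28486150-28486399 (minus strand), and capitals mark the arms.
Sgk1: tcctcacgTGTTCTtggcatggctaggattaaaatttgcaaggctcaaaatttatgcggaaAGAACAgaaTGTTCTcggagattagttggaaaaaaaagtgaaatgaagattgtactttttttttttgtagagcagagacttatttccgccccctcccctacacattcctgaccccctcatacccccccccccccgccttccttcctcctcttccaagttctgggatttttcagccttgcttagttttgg
Tsc22d3: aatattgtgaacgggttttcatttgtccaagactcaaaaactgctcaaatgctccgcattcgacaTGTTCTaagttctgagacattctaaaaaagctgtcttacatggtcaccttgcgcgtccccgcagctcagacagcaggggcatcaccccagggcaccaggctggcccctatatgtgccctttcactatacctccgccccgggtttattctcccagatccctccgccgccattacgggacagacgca
Fkbp5: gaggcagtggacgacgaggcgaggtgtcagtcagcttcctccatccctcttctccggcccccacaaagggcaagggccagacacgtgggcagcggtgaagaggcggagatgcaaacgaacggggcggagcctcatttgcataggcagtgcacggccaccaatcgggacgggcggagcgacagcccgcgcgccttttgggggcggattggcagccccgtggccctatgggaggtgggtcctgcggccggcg
In Sgk1 the element spans bases −189 to −175 from the start site, and a further arm lies at −242 to −237. In Tsc22d3 a single arm lies at −185 to −180, and the Fkbp5 stretch holds none. A match is a match of letters only, and binding was not measured. Sequence outside these windows was not read, so a window without a match does not show that a gene lacks an element. The Fkbp5 window lies inside the annotated gene, which reaches 28517527, and was the only one read for its 15 transcripts.

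Nr3c1, the receptor, had overlapping levels in the 4 groups. It had 11.5, 13.0 and 10.6 FPKM in HFD_DSS 1 to 3 and 11.6, 12.1 and 12.5 in CD_DSS 1 to 3. HFD 1 to 3 had 11.4, 16.01 and 15.2 FPKM, and CD 1 to 3 had 15.4, 12.9 and 11.8. The highest library was 1.51 times the lowest, the narrowest range of the 9 genes. The log2 difference of FPKM + 1 was −0.25 (SE 0.13; −0.46 without the 3 libraries) for HFD_DSS against HFD and −0.13 (SE 0.13) for CD_DSS against CD.

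Zbtb16 encodes a zinc finger transcription factor, also named PLZF, that acts mostly as a repressor and is induced by glucocorticoids in several human cell types. It had 11.7, 9.16 and 11.8 FPKM in HFD_DSS 1 to 3 against 1.32, 1.60 and 1.91 in HFD 1 to 3. With CD it had 12.1, 11.6 and 9.41 FPKM in CD_DSS 1 to 3 against 2.49, 4.13 and 2.71 in CD 1 to 3. Every DSS library was above every untreated one, from 9.16 to 12.1 against 1.32 to 4.13 FPKM. The group means differed 6.76-fold for HFD_DSS against HFD (log2 difference of FPKM + 1 of 2.18, SE 0.16) and 3.55-fold for CD_DSS against CD (1.57, SE 0.16). From low to high the means were 1.61 ± 0.297 in HFD, 3.11 ± 0.894 in CD, 10.9 ± 1.503 in HFD_DSS and 11.0 ± 1.44 in CD_DSS (SD, n = 3 each). In that order HFD_DSS and CD_DSS overlapped, and each other pair of neighbours was apart. Of the 3 libraries that Saa1 set apart, CD_DSS 1, at 9.14 FPKM of Saa1, had the highest Zbtb16 level of all 12, HFD 1, at 579 FPKM of Saa1, had the lowest, and HFD_DSS 2 had the lowest of the 6 DSS libraries. Without them the log2 differences were 2.21 and 1.499.

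Fkbp5, the receptor co-chaperone, followed the same order of groups with a wider spread. It had 12.4, 7.70 and 8.36 FPKM in HFD_DSS 1 to 3 against 2.26, 1.59 and 1.63 in HFD 1 to 3. Levels were 5.82, 12.0 and 12.7 FPKM in CD_DSS 1 to 3 against 3.76, 5.17 and 4.22 in CD 1 to 3. The 6 DSS libraries, at 5.82 to 12.7 FPKM, did not overlap the 6 untreated ones, at 1.59 to 5.17. CD_DSS 1, the library low in Saa1, was the lowest of the DSS libraries and stood close to CD 2. The log2 differences were 1.87 (SE 0.25) for HFD_DSS against HFD and 0.99 (SE 0.25) for CD_DSS against CD, and 2.10 and 1.32 without the 3 libraries. Group means were 5.19-fold and 2.32-fold higher with DSS.

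Tsc22d3 encodes GILZ, a leucine zipper protein that mediates anti-inflammatory effects of glucocorticoids, and it differed in the opposite direction. It had 18.8, 29.0 and 28.4 FPKM in HFD_DSS 1 to 3 against 52.4, 44.6 and 34.2 in HFD 1 to 3. In CD_DSS 1 to 3 it had 14.6, 19.4 and 19.5 FPKM, against 29.9, 60.2 and 56.1 in CD 1 to 3. All 6 DSS libraries were below all 6 untreated ones, but HFD_DSS 2 (29.0) and CD 1 (29.9) nearly touched. The log2 difference was −0.76 (SE 0.26) for HFD_DSS against HFD, where the mean was 1.72-fold lower, and −1.35 (SE 0.26) for CD_DSS against CD, where it was 2.73-fold lower. Without the 3 libraries these were −0.73 and −1.22.

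**Figure D1:**
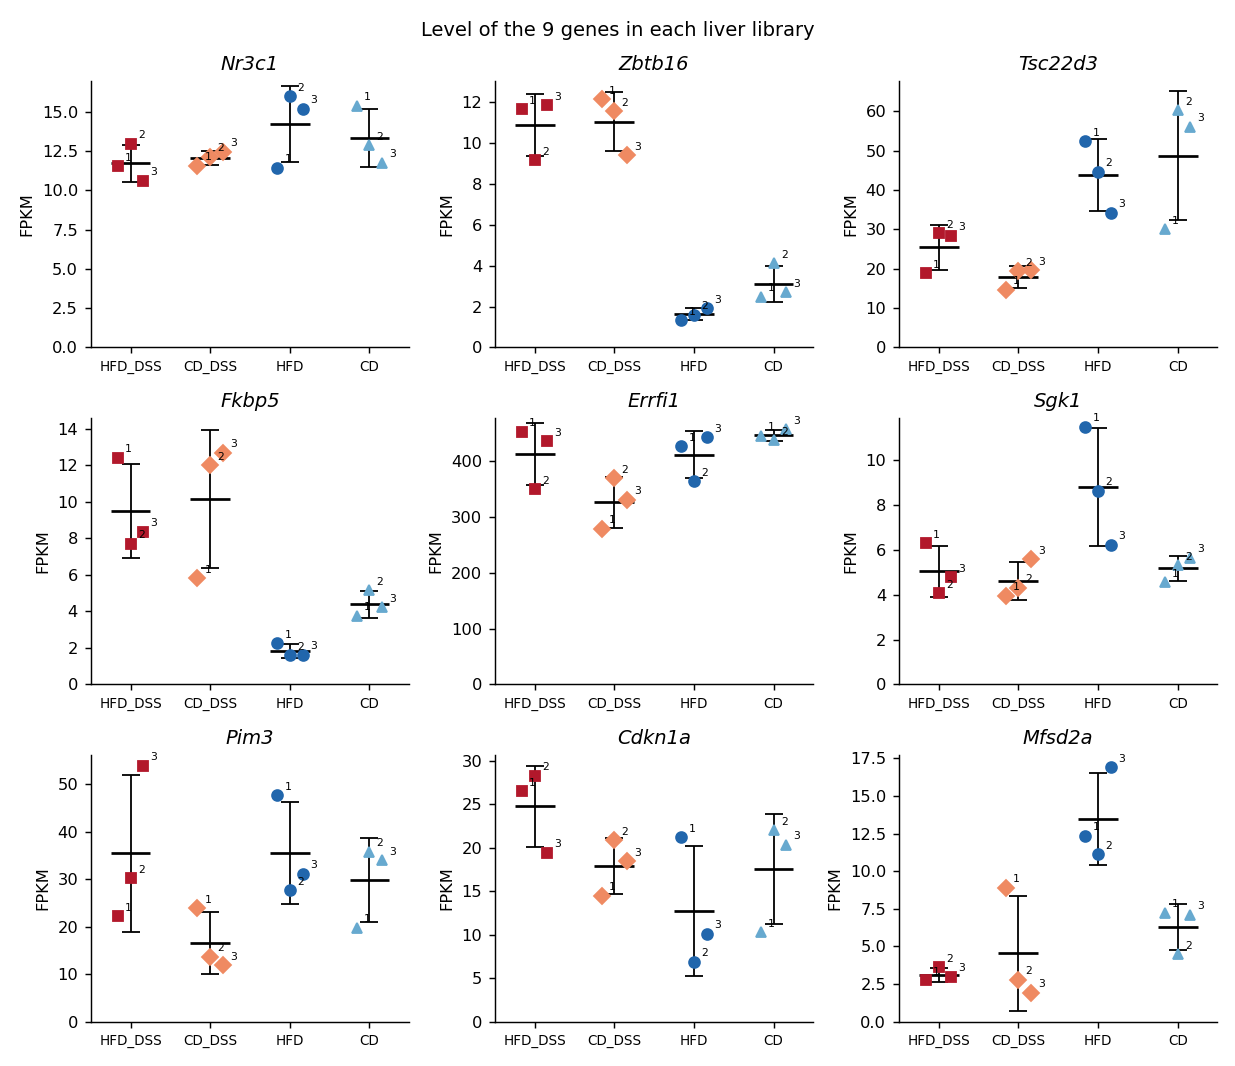
FPKM (linear axes from 0) of the 9 genes in each liver library, by group; points are libraries with their replicate number, the line is the group mean and the bar ± 1 SD (n = 3). Zbtb16 and Fkbp5 are above 5 FPKM in all 6 DSS libraries, Tsc22d3 is lower in those 6 than in the 6 untreated ones, and the groups of Nr3c1 overlap.

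Mfsd2a encodes a sodium-dependent transporter of lysophosphatidylcholine. It had 2.75, 3.61 and 2.98 FPKM in HFD_DSS 1 to 3 against 12.4, 11.1 and 16.9 in HFD 1 to 3, a 4.33-fold lower mean (log2 difference −1.80, SE 0.36). On the other diet it had 8.91, 2.78 and 1.93 FPKM in CD_DSS 1 to 3 against 7.25, 4.50 and 7.10 in CD 1 to 3. The groups were apart with the high-fat diet and overlapped with CD, where CD_DSS 1 was above every CD library. The log2 difference for CD_DSS against CD was −0.58 (SE 0.36), and −1.11 without the 3 libraries, 1 of which is CD_DSS 1.

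Errfi1, an inhibitor of the epidermal growth factor receptor, was the most abundant of the 9. It had 451, 349 and 434 FPKM in HFD_DSS 1 to 3 against 426, 363 and 442 in HFD 1 to 3, 2 groups that overlapped throughout. With CD it had 278, 369 and 330.4 FPKM in CD_DSS 1 to 3 against 444, 436 and 456 in CD 1 to 3, groups that were apart (log2 difference −0.46, SE 0.14). The 2 kinases of the set overlapped between DSS and no DSS. Sgk1, which regulates ion transport, had 6.29, 4.06 and 4.80 FPKM in HFD_DSS 1 to 3 against 11.5, 8.65 and 6.24 in HFD 1 to 3 (−0.68, SE 0.19; −0.36 without the 3 libraries). It had 3.96, 4.32 and 5.59 FPKM in CD_DSS 1 to 3 against 4.56, 5.32 and 5.64 in CD 1 to 3. Sgk1 was not higher with DSS on either diet, and use of its promoter window with the full response element was not measured. Pim3, a serine/threonine kinase, had 22.2, 30.2 and 53.9 FPKM in HFD_DSS 1 to 3 against 47.7, 27.6 and 31.2 in HFD 1 to 3 (−0.06, SE 0.35; 0.23 without the 3 libraries). It had 23.9, 13.7 and 11.9 FPKM in CD_DSS 1 to 3 against 19.7, 35.8 and 34.1 in CD 1 to 3 (−0.84, SE 0.35).

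Cdkn1a encodes the cell cycle inhibitor p21, which is also induced by p53. It had 26.5, 28.3 and 19.4 FPKM in HFD_DSS 1 to 3 against 21.2, 6.91 and 10.1 in HFD 1 to 3, where HFD 1, high in Saa1, overlapped HFD_DSS (log2 difference 1.03, SE 0.36; 1.34 without the 3 libraries). With CD it had 14.5, 20.9 and 18.4 FPKM in CD_DSS 1 to 3 against 10.3, 22.0 and 20.3 in CD 1 to 3, groups that overlapped (0.08, SE 0.36). None of the 7 tested genes of a list of 10 other p53 targets was called with DSS in limma on either diet. An unadjusted p under 0.05 was held by 0 and 4 of them for HFD_DSS against HFD and CD_DSS against CD (23.7% and 23.6% of all genes). Of the 7, 6 had a positive log2 difference on each diet, with medians of 0.14 and 0.29. Whether p53 acted on Cdkn1a was not tested.

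Counted over the set, 4 of the 9 genes had DSS and untreated groups that did not overlap on each diet. Zbtb16 and Fkbp5 were higher and Tsc22d3 lower on both, joined by Mfsd2a (lower) for HFD_DSS against HFD and by Errfi1 (lower) for CD_DSS against CD. Among all 10806 tested genes the groups did not overlap for 27.1% in HFD_DSS against HFD and for 27% in CD_DSS against CD. Because these comparisons chose the genes, nothing is read from the counts. Without the 3 libraries the count was 6 of 9 on each diet, where 64.1% of all genes did not overlap in HFD_DSS against HFD and 47.3% in CD_DSS against CD.

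**Figure D2:**
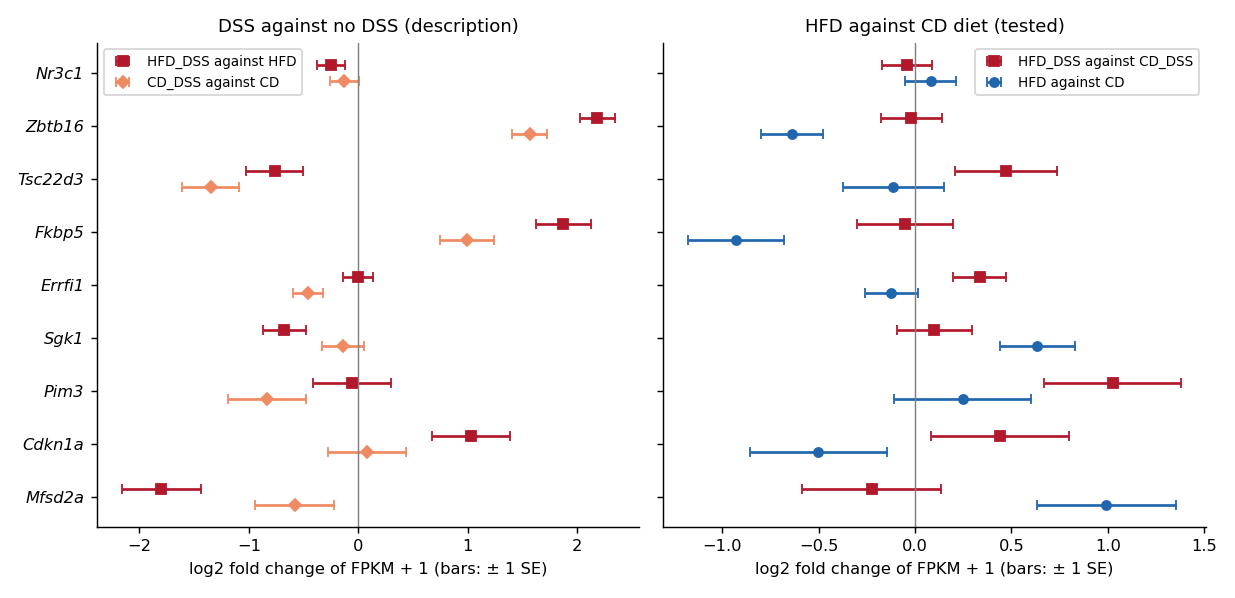
Log2 fold change of FPKM + 1 (bars: ± 1 SE of the limma fit to 12 libraries) of the 9 genes, for DSS against no DSS in the left panel and for the high-fat diet against CD in the right panel. With DSS, Zbtb16 (2.18 and 1.57) and Fkbp5 (1.87 and 0.99) lie to the right and Tsc22d3 (−0.76 and −1.35) to the left of 0, while without DSS both Zbtb16 (−0.64) and Fkbp5 (−0.93) lie to the left for the diet.

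The high-fat diet, a comparison that did not choose the genes but shares its libraries with those that did, gave no call for any of them. Without DSS, 0 of 9 passed in limma at an adjusted p of 0.05 (0.00925% of all genes were called), and 4 had an unadjusted p under 0.05 (6.72% of all genes). The same 4 were apart between HFD and CD, where 13.1% of all genes were apart. Zbtb16, given per library above, averaged 1.61 ± 0.297 FPKM in HFD and 3.11 ± 0.894 in CD (SD, n = 3 each), a log2 difference of −0.64 (SE 0.16, 95% interval −0.99 to −0.29, limma adjusted p = 0.325), and was lower in 3 of 3 HFD libraries. Fkbp5 averaged 1.83 ± 0.378 FPKM in HFD and 4.38 ± 0.719 in CD (−0.93, SE 0.25, interval −1.48 to −0.38, limma adjusted p = 0.407). Both genes that were high with DSS were thus at their lowest in the HFD libraries, though neither passed after adjustment.

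In the same comparison Sgk1 averaged 8.79 ± 2.63 FPKM in HFD and 5.17 ± 0.558 in CD (log2 difference 0.63, SE 0.19, interval 0.21 to 1.06, limma adjusted p = 0.487). Mfsd2a averaged 13.5 ± 3.04 FPKM in HFD and 6.28 ± 1.55 in CD (0.99, SE 0.36, interval 0.20 to 1.79, limma adjusted p = 0.612). Each was higher in 3 of 3 HFD libraries. A fit with library weights called Zbtb16 (−0.79, limma adjusted p = 0.0430) and Fkbp5 (−1.11, limma adjusted p = 0.0280). Over all alternatives the adjusted p ran from 0.0430 to 0.718 for Zbtb16 and from 0.0280 to 0.782 for Fkbp5. Intervals of the other 5 genes held 0, with Nr3c1 at 0.08 (interval −0.21 to 0.37).

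Between the diets under DSS, 0 of 9 were called in HFD_DSS against CD_DSS (0.102% of all genes), none was apart (16.5% of all genes) and 2 had an unadjusted p under 0.05 (10.8%). Zbtb16 averaged 10.9 ± 1.503 FPKM in HFD_DSS and 11.0 ± 1.44 in CD_DSS, a log2 difference of −0.02 (SE 0.16, interval −0.37 to 0.33). Fkbp5 had −0.05 (interval −0.60 to 0.50), Tsc22d3 0.47 (−0.10 to 1.05) and Nr3c1 −0.04 (−0.33 to 0.24). These intervals leave room for differences of those sizes. The 2 with a low unadjusted p were Pim3, at 35.4 ± 16.5 FPKM in HFD_DSS and 16.5 ± 6.52 in CD_DSS (log2 difference 1.03, SE 0.35, limma adjusted p = 0.311), and Errfi1, at 411 ± 55.0 FPKM in HFD_DSS and 326 ± 45.5 in CD_DSS (0.34, SE 0.14, limma adjusted p = 0.401). Averaged over DSS states the diet gave 0 calls among the 9 (0.342% of all genes). Zbtb16, Fkbp5, Sgk1 and Pim3 had an unadjusted p under 0.05, as had 12.6% of all genes.

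The DSS difference of the high-fat diet minus that of CD was tested as a term of the same model. None of the 9 genes passed (0.00925% of all genes did), and 4 had an unadjusted p under 0.05, against 4.93% of all genes. Zbtb16 had 0.62 (SE 0.22, interval 0.13 to 1.11) and Fkbp5 0.88 (SE 0.35, interval 0.10 to 1.65), the larger DSS difference being that with the high-fat diet for both. Errfi1 had 0.46 (interval 0.03 to 0.89) and Mfsd2a −1.22 (interval −2.34 to −0.09). The limma adjusted p was 0.9999 for each, and without the 3 libraries none was called either. The 2 DSS differences share no library, but this term uses the libraries that chose the genes.

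How far the 9 genes moved together was described by correlating log2(FPKM + 1) over libraries, which share their groups and so are not independent points. No p is given. Across all 12 libraries, r was 0.91 for Zbtb16 and Fkbp5, −0.78 for Zbtb16 and Tsc22d3 and −0.65 for Fkbp5 and Tsc22d3, values that hold the distance between DSS and untreated libraries. Within groups, where each library is set against its own group mean, the same 3 pairs had r = −0.01, 0.02 and 0.27. Among the 6 untreated libraries Zbtb16 and Fkbp5 had r = 0.86, and among the 6 DSS libraries r = −0.18. The groups did not go one way: the 3 CD libraries had the same order in both genes and HFD_DSS 2 was the lowest of its group in both, while CD_DSS 1 was the highest of its group in Zbtb16 and the lowest in Fkbp5. Without the 3 libraries that Saa1 set apart, the r of deviations of Zbtb16 and Fkbp5 was 0.45 over 9 libraries.

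Of the 36 pairs among the 9 genes, 10 had an r of deviations of at least 0.5 in size over the 12 libraries. The share of all gene pairs with such an r was not computed, and groups this small leave r imprecise. The counts and single pairs below are therefore a description, and no link between genes is read from them. Fkbp5 and Mfsd2a had −0.86, Nr3c1 and Pim3 −0.72, Fkbp5 and Errfi1 0.70, Nr3c1 and Cdkn1a −0.68, Fkbp5 and Sgk1 0.66 and Tsc22d3 and Cdkn1a 0.60. Without the 3 libraries that Saa1 set apart, a setting chosen here after the data were seen, the r of deviations of Fkbp5 and Mfsd2a was −0.48. In that setting 10 pairs had at least 0.5 in size, but not all were the same pairs. Nr3c1 and Pim3 (−0.75), Nr3c1 and Cdkn1a (−0.72) and Fkbp5 and Sgk1 (0.56) were in both settings. Fkbp5 and Errfi1 (0.05) and Tsc22d3 and Cdkn1a (0.47) were no longer among them. Errfi1 and Mfsd2a had −0.43 over the 12 libraries and 0.77 over the 9. Among 9401 genes ranked by likeness to Fkbp5, Mfsd2a was at place 9398, near the opposite end. With group differences included, r of Fkbp5 and Mfsd2a was −0.94 over the 12 libraries, −0.93 among the 6 untreated and −0.87 among the 6 DSS libraries, and −0.97 over the 9 libraries. Over the 12 libraries, deviations of Fkbp5 also went with those of Saa1 (r = 0.81) and those of Mfsd2a against them (−0.73), whereas Zbtb16 had −0.08 with Saa1. The 3 libraries that Saa1 set apart are in these values, and r of deviations with Saa1 was not computed without them. With group differences included, r with Saa1 over the 12 libraries was 0.62 for Fkbp5, −0.66 for Mfsd2a and 0.49 for Zbtb16. Over the 9 libraries it was 0.85 for Fkbp5, −0.83 for Mfsd2a and 0.97 for Zbtb16. Leaving out the 3 libraries leaves Saa1 split by DSS, as Zbtb16 and Fkbp5 are, so the values over the 9 hold that split and nothing is read from them. CD_DSS 1, with the lowest Saa1 level of the DSS libraries, had the lowest Fkbp5 and the highest Mfsd2a level among them.

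**Figure D3:**
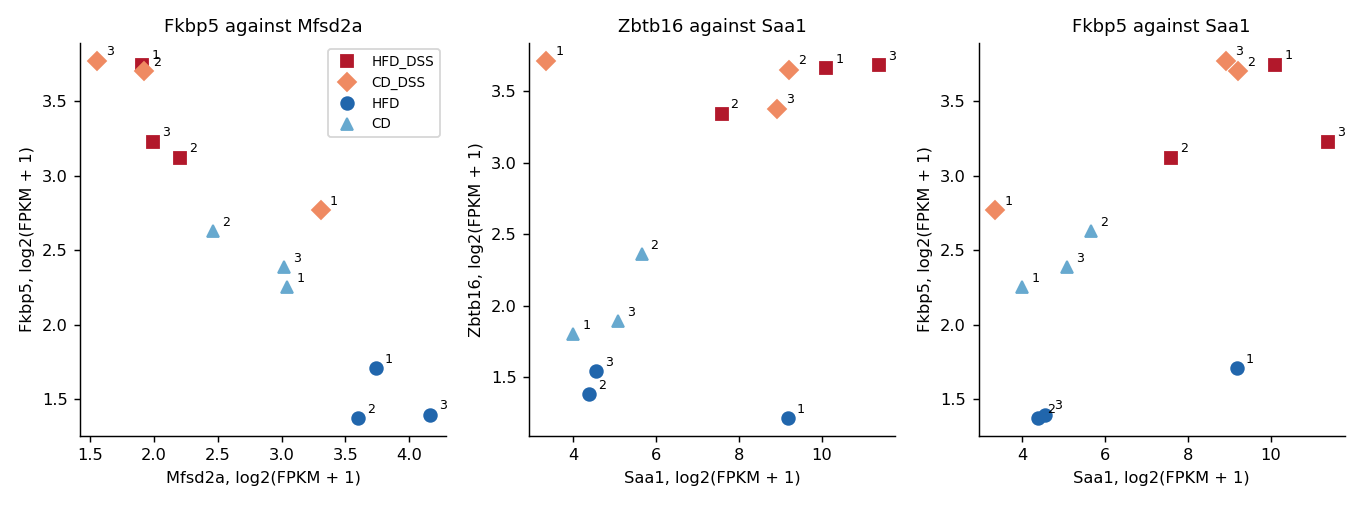
Log2(FPKM + 1) of gene pairs, each point a library with its replicate number, colours and shapes for the 4 groups. Fkbp5 is lower where Mfsd2a is higher (r = −0.94 over 12 libraries), Zbtb16 splits by DSS whatever the level of Saa1, so that CD_DSS 1 is high and HFD 1 low, and Fkbp5 is lower in CD_DSS 1 than in the other DSS libraries.

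The 5 genes most like Zbtb16 over the 12 libraries were Klf10 and Sox9 (r = 0.96 each) and Man2a1, Nktr and Grk6 (0.94 each), with Fkbp5 at place 18 of 9401. Of these 5, Nktr alone had r above 0.5 for deviations from group means (0.59). For Fkbp5 they were Rbm15 (0.96), Dlgap4 (0.96), St3gal5 (0.95), Arhgef26 (0.95) and Anxa3 (0.95), with r of deviations from 0.74 to 0.88 over the 12 libraries. Zbtb16 was at place 32 of that ranking. For Tsc22d3 they were Odc1 (0.95), Coq2 (0.94), Alas2 (0.94), Rars2 (0.94) and Eef1akmt1 (0.93), with r of deviations from 0.75 to 0.85. No gene was among the 5 of more than 1 of the 3.

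Other targets of the receptor, a list of 28 genes without the 9, had a negative log2 difference for 15 of the 26 tested in HFD_DSS against HFD, where 52.1% of all genes had one, and for 20 of the 26 in CD_DSS against CD, where 51.4% had. For CD_DSS against CD, 0 of the 26 tested were called higher and 5 lower, with a median log2 difference of −0.45 against −0.01 over all genes. Of all genes 4.8% were called there, 2.01% higher and 2.79% lower. For HFD_DSS against HFD, 1 was called higher and 2 lower, with a median of −0.15 against −0.01, beside 4.83% of all genes called, 1.73% higher and 3.1% lower. Unadjusted p-values under 0.05 were held by 9 of the 26 for HFD_DSS against HFD (23.7% of all genes) and by 16 for CD_DSS against CD (23.6%). Hif3a and Cdkn1c were below the filter. The list was chosen with results of these data known, so it does not stand as independent evidence.

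G6pc, whose product releases glucose from liver cells, fell on both diets. It had 42.8, 79.6 and 61.5 FPKM in HFD_DSS 1 to 3 against 349.9, 269 and 242 in HFD 1 to 3 (log2 difference −2.23, SE 0.50, limma adjusted p = 0.0330). In CD_DSS 1 to 3 it had 147, 83.9 and 23.7 FPKM, against 355, 334 and 403 in CD 1 to 3 (−2.42, SE 0.50, limma adjusted p = 0.0249). All DSS libraries were below all untreated ones. Tdo2, which opens the breakdown of tryptophan, fell as well (−0.68, limma adjusted p = 0.0437 for HFD_DSS against HFD; −0.85, limma adjusted p = 0.0216 for CD_DSS against CD).

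Tat, tyrosine aminotransferase and the classical glucocorticoid-induced enzyme of liver, had 705, 569 and 699 FPKM in HFD_DSS 1 to 3 against 1111, 862 and 851 in HFD 1 to 3 (−0.51, limma adjusted p = 0.232). It fell for CD_DSS against CD, with 745, 519.9 and 441 FPKM in CD_DSS 1 to 3 against 904, 1470.4 and 1663 in CD 1 to 3 (−1.23, SE 0.24, limma adjusted p = 0.0225). Got1, an aspartate aminotransferase (−0.96, limma adjusted p = 0.0336), and Agpat2, an acyltransferase of lipid synthesis (−0.48, limma adjusted p = 0.0180), fell there too. The gene called higher was Mt2, a metal-binding metallothionein, with 118, 30.8 and 83.8 FPKM in HFD_DSS 1 to 3 against 11.1, 0.140 and a listed 0 in HFD 1 to 3 (4.84, SE 1.22, limma adjusted p = 0.0475). With CD it had 4.50, 99.1 and 142 FPKM in CD_DSS 1 to 3 against 0.971, 3.09 and 0.130 in CD 1 to 3, groups that were apart, but was not called. It shares 73.5% of its exon bases with the antisense gene Gm45774, and whether counting used strand is not stated in the sources used here. Among targets not called, Per1 had 0.21 and −0.23, Klf9 0.25 and −0.10, and Dusp1 −0.58 and 0.06 for HFD_DSS against HFD and CD_DSS against CD. Mt1, another metallothionein that was not called, had 714, 138 and 520 FPKM in HFD_DSS 1 to 3 against 68.3, 4.17 and 2.64 in HFD 1 to 3. In CD_DSS 1 to 3 it had 24.4, 585 and 466 FPKM, against 9.69, 28.7 and 6.11 in CD 1 to 3, where CD_DSS 1 overlapped CD.

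The number of calls changed with the libraries used, in this list as over all genes. For CD_DSS against CD, 0 of the list were called without CD 2, CD 3 or CD_DSS 2, 1 without CD_DSS 3, 2 without CD 1, and 14 without CD_DSS 1. Of all 10806 genes, 519 were called there with all 12 libraries. Without CD 2, CD 3 or CD_DSS 2 there were 79, 141 and 84, and 63 without CD_DSS 3. Without CD 1 there were 212, and 1271 without CD_DSS 1. For HFD_DSS against HFD, 0 were called without CD 2, HFD 2, HFD 3, HFD_DSS 1 or HFD_DSS 3, 1 without CD 1, CD 3 or CD_DSS 2, and 6 without CD_DSS 1. Of all genes, 522 were called there with all 12 libraries. Without CD 2, HFD 2, HFD 3, HFD_DSS 1 or HFD_DSS 3 there were 287, 9, 117, 35 and 37. Without CD 1, CD 3 or CD_DSS 2 there were 415, 399 and 366, and 904 without CD_DSS 1. Without the 3 libraries together, 5 were called higher and 13 lower for CD_DSS against CD, where 1924 of all genes were called (896 higher and 1028 lower). For HFD_DSS against HFD, 6 were called higher and 4 lower, beside 2027 of all genes (874 higher and 1153 lower). The diet called 0 of the 26 with or without DSS, while 3 (HFD against CD) and 2 (HFD_DSS against CD_DSS) had an unadjusted p under 0.05.

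**Figure D4:**
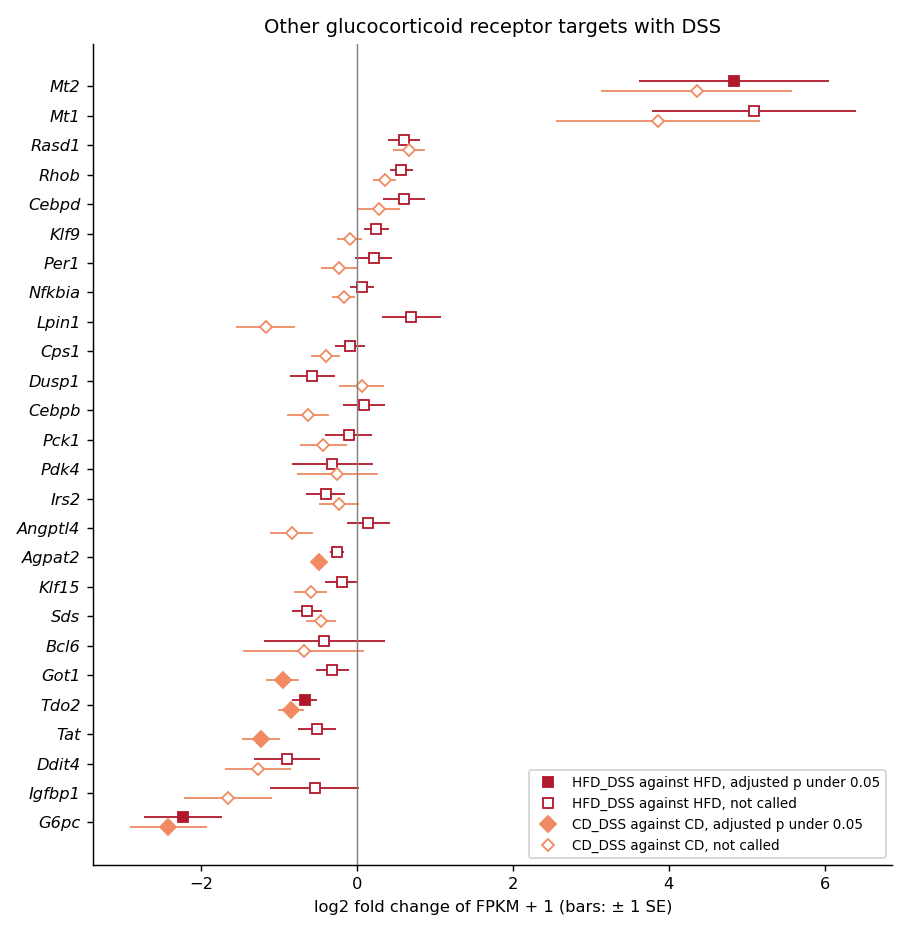
Log2 fold change of FPKM + 1 (bars: ± 1 SE) for the 26 tested genes of the list of other receptor targets, squares for HFD_DSS against HFD and diamonds for CD_DSS against CD, filled where the limma adjusted p was under 0.05. G6pc (−2.23 and −2.42) is lowest and filled for both, Mt2 (4.84) is filled for HFD_DSS against HFD, and most others lie to the left of 0 for CD_DSS against CD (20 of 26).

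Genes that make, carry or inactivate glucocorticoids were read next, with those that form the complex of the receptor. The first list, of steroid handling, also held Nr3c2, a related receptor gene that is counted among the paralogs too. Of its 8 genes 6 were tested, with Hsd11b2 and Abcb1a below the filter. Among the 6, 1 was called on each diet (4.83% of all genes for HFD_DSS against HFD and 4.8% for CD_DSS against CD). An unadjusted p under 0.05 was held by 4 on each (23.7% of all genes for HFD_DSS against HFD and 23.6% for CD_DSS against CD). Srd5a1, a steroid reductase, fell for HFD_DSS against HFD (−1.24, limma adjusted p = 0.0491) and Akr1d1, another reductase of steroids and bile acid precursors, for CD_DSS against CD (−0.94, limma adjusted p = 0.0396). The Srd5a1 call was lost without any of 10 of the 12 libraries (limma adjusted p up to 0.177) and the Akr1d1 call without any of 8 (up to 0.161), and 16.4% of the exon bases of Srd5a1 are shared with Gm17108. Hsd11b1, which regenerates active hormone in liver, had −0.46 (limma adjusted p = 0.0949) and −0.04 (0.902) for HFD_DSS against HFD and CD_DSS against CD. None of 13 chaperones and co-chaperones of the receptor was called in limma with DSS (3 and 2 at an unadjusted p under 0.05 for HFD_DSS against HFD and CD_DSS against CD), nor any of 12 coregulators (1 and 0). Medians of these 2 lists lay between −0.01 and 0.09. Fkbp4, the co-chaperone that competes with the product of Fkbp5 in the complex, had −0.35 and −0.33 (limma adjusted p = 0.150 and 0.183).

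Among 15 tested paralogs of the 9 genes, 2 were called on each diet (4.83% of all genes for HFD_DSS against HFD and 4.8% for CD_DSS against CD). Tsc22d1, of the same family as Tsc22d3, was called on both diets. It had 2.83, 3.40 and 3.95 FPKM in HFD_DSS 1 to 3 against 14.5, 16.9 and 25.2 in HFD 1 to 3 (log2 difference −2.15, SE 0.20, limma adjusted p = 8.51e-04). In CD_DSS 1 to 3 it had 3.57, 2.63 and 2.50 FPKM, against 10.0, 10.2 and 7.196 in CD 1 to 3 (−1.37, SE 0.20, limma adjusted p = 0.00755). Every DSS library was below every untreated one, and both calls held with each of the 12 libraries left out (limma adjusted p up to 0.00622 and 0.0421). Pim1, a paralog of Pim3 that cytokines induce, rose for HFD_DSS against HFD (1.04, limma adjusted p = 0.0337), a call lost without CD 2, HFD 2, HFD 3, HFD_DSS 1 or HFD_DSS 3 (up to 0.147). Tsc22d4 rose for CD_DSS against CD (0.39, limma adjusted p = 0.0479), a call lost without any of 11 of the 12 libraries (up to 0.187). No paralog of Zbtb16, Fkbp5, Sgk1 or Cdkn1a that was tested passed.

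Lists of other inputs that reach some of these genes were read in the same way, beside 4.83% of all genes called for HFD_DSS against HFD and 4.8% for CD_DSS against CD. Of 19 tested acute phase genes, 7 were called higher for HFD_DSS against HFD (1.73% of all genes), led by Apcs (3.19), Socs3 (2.42), Fgl1 (2.42), Itih4 (1.48), Fga (1.28) and Pim1. For CD_DSS against CD 3 were called higher (2.01% of all genes): Socs3 (2.31), Fga (1.24) and Stat3 (0.85). All 19 had a positive log2 difference on each diet, with medians of 1.74 and 1.40. Of them 18 and 14 had an unadjusted p under 0.05 (23.7% and 23.6% of all genes). Socs3, a feedback inhibitor of cytokine signals, was the steadiest, with its CD call held in all 12 leave-outs and its HFD call lost without HFD 2 (limma adjusted p = 0.0566), while the other calls named were each lost in 3 to 9 leave-outs. Of 12 tested clock genes, the repressors Cry1 (−0.75, limma adjusted p = 0.0272) and Cry2 (−0.52, limma adjusted p = 0.0337) fell for HFD_DSS against HFD, calls lost without HFD 2, HFD 3, HFD_DSS 1 or HFD_DSS 3 (up to 0.144), and none was called for CD_DSS against CD (4 at an unadjusted p under 0.05). None of 13 genes of PPAR alpha and fasting was called with DSS in limma (2 at an unadjusted p under 0.05 on each diet). Time of day and feeding state at collection are not stated in the sources used here.

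Markers of other cells moved beside these genes, and in bulk liver fewer cells of a type and less RNA per cell cannot be told apart. The 12 macrophage and Kupffer cell markers summed to 403 to 589.8 FPKM in HFD_DSS, 339.7 to 622 in CD_DSS, 297 to 479 in HFD and 304 to 375 in CD. Of them Marco alone was called for HFD_DSS against HFD (1.90, limma adjusted p = 0.0358), a call lost without any of 6 of the 12 libraries (up to 0.150). None was called for CD_DSS against CD. All 12 had a positive log2 difference on each diet, with medians of 0.48 for HFD_DSS against HFD and 0.60 for CD_DSS against CD. An unadjusted p under 0.05 in limma was held by 4 and 9 of them, in that order (23.7% and 23.6% of all genes). The 7 neutrophil markers summed to 5.56 to 58.5 FPKM in HFD_DSS, 4.02 to 24.2 in CD_DSS, 1.92 to 24.4 in HFD and 1.79 to 3.30 in CD, and limma called 0 of the 4 tested (1 and 0 at an unadjusted p under 0.05 for HFD_DSS against HFD and CD_DSS against CD). All 4 had a positive log2 difference on each diet. CD_DSS 1 had the lowest sums of both lists among the CD_DSS libraries, beside its low Fkbp5 level.

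Sox9, a marker of bile duct cells, was the second gene most like Zbtb16. It had 4.44, 3.62 and 4.14 FPKM in HFD_DSS 1 to 3 against 1.39, 1.47 and 1.37 in HFD 1 to 3 (log2 difference 1.07, SE 0.10, limma adjusted p = 8.51e-04). In CD_DSS 1 to 3 it had 3.67, 3.16 and 4.21 FPKM, against 1.94, 1.78 and 1.55 in CD 1 to 3 (0.76, SE 0.10, limma adjusted p = 0.00458). Both calls held in all 12 leave-outs, and every DSS library was above every untreated one, as for Zbtb16. The other 2 tested duct markers, Epcam and Spp1, were not called, and the 6 markers summed to 30.1 to 38.7 FPKM in HFD_DSS, 31.6 to 41.8 in CD_DSS, 17.6 to 34.3 in HFD and 25.6 to 34.8 in CD. Ass1 fell among the 8 hepatocyte markers on both diets (−0.85 and −0.71 for HFD_DSS against HFD and CD_DSS against CD; limma adjusted p = 0.0266 and 0.0449), Dcn of the stellate list rose for HFD_DSS against HFD (0.71, limma adjusted p = 0.0289), and Clec4g of the sinusoidal list (0.48) and Cd4 of the T cell list (−0.58) were called for CD_DSS against CD (limma adjusted p = 0.0396 and 0.0488). Each of these calls was lost in 4 to 10 of the 12 leave-outs. The part of cell composition in the levels of the 9 genes was not tested.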

How the data were processed

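Qiagen columns and a SMARTer mRNA-seq kit, as the labels' protocols state, gave 12 liver libraries in 4 groups of 3. Per the submitters' processing notes the build was mm10, with aligner and counter not given in the sources used here. Per gene, the authors deposited FPKM in 1 column per library. Of 54532 gene IDs, 54409 (99.8%) had a symbol in the mm10 GENCODE M21 annotation. Multiplied by exon length, 97.0 to 97.3% of the values under 500 fragments lay within 0.02 of whole fragments, whose sums gave depths of 23.4 to 29.4 M. The table's 4 unnamed empty columns were not used.

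Log2(FPKM + 1) of the 10806 genes that reached 1 FPKM in 3 or more libraries was fitted with limma 3.58.1 in R 4.3.3 (4 group means, variance trend, two-sided), with Benjamini-Hochberg adjustment over all of them at 0.05. The pseudocount understates changes of genes near 1 FPKM. The 9 genes, the 17 gene lists (195 genes) and the tests were chosen with earlier results of these data known. The text names all 9 genes, up to 6 called genes per list and comparison by size of change, the 5 genes most like Zbtb16, Fkbp5 and Tsc22d3 by Pearson r, and Saa1. Uncalled list genes given with values (Per1, Klf9, Dusp1, Mt1, Hsd11b1, Fkbp4) or by name only (Epcam, Spp1), Tat on the high-fat diet and Mt2 with CD were chosen after their values were seen. The test was checked on simulated data. Same-numbered libraries showed no steady pairing: of 18 pairs across groups, 5 had a correlation of deviations over 0.1 (range −0.36 to 0.26). Differently numbered libraries were not compared, so this check cannot exclude pairing. Alternatives were another pseudocount, filters, TPM, median-of-ratios scaling, library weights, voom, the groups alone, the replicate number as a block and leaving out libraries. Promoter windows came from RefSeq tables of GRCm38.p6. Python 3.11.15 was used.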

Additional observations from a re-analysis of the deposited data

How the results depend on the processing

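Of 774 values of the 9 genes in the diet comparisons and in the difference between DSS effects under alternatives, 3 were called, all with library weights: 2 of the 9 genes were then called for HFD against CD (Zbtb16 and Fkbp5) and 1 for the diet averaged over DSS states (Fkbp5, −0.69, limma adjusted p = 0.0230). Their calls stayed at 0 in every leave-out of 1 library. Of the 774, 32 had the opposite sign, all for genes not called. These were Pim3 for HFD against CD with library weights (−0.0801), Zbtb16 for HFD_DSS against CD_DSS with library weights (0.0504) and without HFD 1, CD_DSS 1 and HFD_DSS 2 together (0.16), Mfsd2a in the same comparison with those 2 settings (0.0253 and 0.21), and for the averaged diet Nr3c1 with TPM (−0.0121) and Tsc22d3 without the 3 libraries (−0.00515). Leaving out 1 library gave, for HFD against CD, −0.00616 to 0.219 for Nr3c1, −0.423 to 0.0687 for Tsc22d3 and −0.0161 to 0.404 for Pim3. For HFD_DSS against CD_DSS it gave −0.114 to 0.0193 for Nr3c1, −0.12 to 0.0907 for Zbtb16, −0.37 to 0.13 for Fkbp5, −0.0427 to 0.22 for Sgk1 and −0.58 to 0.30 for Mfsd2a, and for the averaged diet −0.0246 to 0.0882 for Nr3c1 and −0.24 to 0.13 for Cdkn1a. The cause was not tested.

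Of the 28 other receptor targets, the number called for CD_DSS against CD was 16 with library weights, 18 without the 3 libraries, 1 with no filter on low values and 1 in a fit of the 2 groups alone, with 0 to 14 in leave-outs of 1 library. Of all genes, 2592, 1924, 157 and 220 were called in those settings, in that order, and 63 to 1271 in the leave-outs. For HFD_DSS against HFD it was 9 with library weights, 10 without the 3 libraries, 5 at a mean of at least 5 FPKM, 0 with no filter and 1 with the 2 groups alone, with 0 to 6 in leave-outs. Of all genes, 2820, 2027, 495, 130 and 122 were called in those settings, in that order, and 9 to 904 in the leave-outs. With the replicate number as a block the list had 4 calls for CD_DSS against CD and 0 for HFD_DSS against HFD, beside 290 and 278 of all genes. The numbers pair no animals in the labels, so a call lost there is not a weaker effect. For HFD against CD library weights called 1 (66 of all genes). For HFD_DSS against CD_DSS 1 was called with library weights (147 of all genes) and 1 without the 3 libraries (79 of all genes). With no filter 25911 genes were tested. The counts of the 9 genes with non-overlapping groups ran from 4 to 6 on each diet in leave-outs of 1 library, in which 32.1 to 47.3% of all genes did not overlap for HFD_DSS against HFD and 32.8 to 47.3% for CD_DSS against CD. The fit of 2 groups alone gives no value for the averaged diet or the difference between DSS effects. The pseudocount lowers the DSS difference of low genes: with voom on recovered fragments Zbtb16 had 2.78 for HFD_DSS against HFD and 1.87 for CD_DSS against CD. Zbtb16 had 179 or more fragments in every library.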

Other observations

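Besides the Sgk1 window, the full response element was found in promoter windows of Acnat2, an acyltransferase gene on chromosome 4, and of Gm35041, which was listed at 0 in all 12 libraries. Acnat2 was looked up after this match was seen. It had 42.5, 13.9 and 35.5 FPKM in HFD_DSS 1 to 3 against 13.1, 6.69 and 5.37 in HFD 1 to 3 (log2 difference 1.70, SE 0.40, limma adjusted p = 0.0375). In CD_DSS 1 to 3 it had 41.4, 59.1 and 80.5 FPKM, against 9.80, 9.39 and 12.8 in CD 1 to 3 (2.35, SE 0.40, limma adjusted p = 0.0138). Every DSS library was above every untreated one with 13.9 against 13.1 FPKM as the closest pair. Sgk1 was not higher with DSS on either diet, and whether the element acts on Acnat2 or Sgk1 was not tested.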
